A study of Tachycineta bicolor with 12 samples.

Results

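Animals make fatty acids in the cytosol by a short chain of enzymes. ATP-citrate synthase (ACLY) splits citrate into acetyl-CoA, acetyl-CoA carboxylase (ACACA and ACACB) turns it into malonyl-CoA, and fatty acid synthase (FASN) joins malonyl-CoA units into palmitate. Desaturases (SCD and the FADS proteins) then add double bonds, while membrane-bound elongases (ELOVL proteins) and dehydratases (HACD proteins) lengthen the chain in the endoplasmic reticulum. In birds the liver is known as the main site of fatty acid synthesis, and brain and retina are known for their long-chain polyunsaturated fatty acids.

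Expression of these enzymes was examined across 6 tissues of the tree swallow (*Tachycineta bicolor*), a songbird that feeds on flying insects. Members were all segments of the assembled transcriptome whose best-matching protein name held 1 of 7 phrases, namely fatty acid synthase, acetyl-CoA carboxylase, ATP-citrate synthase, acyl-CoA desaturase, fatty acid desaturase, elongation of very long chain fatty acids, and very-long-chain (3R)-3-hydroxyacyl. The phrases found 24 of 14908 segments, which carried 22 enzyme names. ACLY was represented by segments A and B, and a protein named ELOVL4-like likewise by a segment A and a segment B. The matching of gene symbols to protein names was by the names alone, and all best matches were in other songbirds. Each member reached a level of 1 CPM (the read count scaled to a common library total of 1000000) in a tissue, so all 24 were analysed.

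Brain, ovary, spleen, liver, pectoral muscle and trunk blood came from 2 wild adult females, 1 taken at territory establishment and 1 during incubation. RNA of both females was combined into 1 pool per tissue, so the breeding stages cannot be told apart and neither can the birds. Each pool was sequenced as a NextSeq library with shorter reads and a MiSeq library with longer reads, which made 12 libraries.

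Because both libraries of a tissue came from 1 pool, their difference measures technical spread only and no test between tissues was possible. Levels are CPM of the summed counts of both libraries, and values given in pairs are those of the NextSeq and then the MiSeq library. No segment lengths were used, so fold changes are between tissues for 1 gene, and a member's share of a sum is its share of the counts and grows with the length of its segment. In pooled tissue RNA, fewer cells of a type and less RNA per cell cannot be told apart.

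Summed depth ranged from 16496224.5 counts in spleen to 42803055.5 in muscle, with 1011107.5 to 2004444.0 of these from MiSeq. All matched defining markers had their highest level in their own tissue, for example 1253 CPM of SNAP25 in brain and 75986 CPM of ALB in liver, while MBP, MOG, MAG, CKM and CASQ1 were not analysed here. The 5 liver markers were also found in spleen, where their median was 1.13% of the level in liver, against 0.133% in ovary and at most 0.0258% for any marker in brain, muscle or blood. The adrenal markers TH, DBH and MC2R were each highest in ovary, summing to 26.3 CPM there and 11.3 in brain. Among matched pancreas markers, CEL had 77.4 CPM in blood and 55.3 in ovary, and the others at most 9.58 anywhere. The part of adrenal or pancreas RNA in the levels was not tested. A few transcripts took much of the counts in some tissues, with 71.6% of muscle counts in 50 segments against 12.3% in ovary. Scaling by trimmed mean of M values (TMM) in place of CPM therefore shifted every segment by a log2 of 1.47 in muscle, 0.87 in blood, 0.82 in liver, −0.93 in brain, −1.05 in spleen and −1.18 in ovary. Under TMM 6 of the 24 members had another leading tissue, and each is given with its values where it is described.

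The tissue with the highest level was the same on both platforms for all 24 members. Liver led for 8 members, brain for 7, ovary for 5, muscle for 2, spleen for 1 and blood for 1. Among all 14561 segments that reached 1 CPM anywhere, the shares were 6.23% for liver, 24.9% for brain, 32.1% for ovary, 4.11% for muscle, 23.7% for spleen and 8.89% for blood. Library values of the leading tissue all lay above those of the next tissue for 23 of 24 members, beside 81.7% of all segments. The exception was HACD1.

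A member was called apart when, with 1 CPM added, its leading tissue was at least 2-fold above the next on both platforms. This held for 17 of 24 members (70.8%), beside 39.8% of all segments. Liver accounted for 8 of the 17, brain for 5 and ovary for 4. These were 33.3%, 20.8% and 16.7% of the 24 members, beside 3.56%, 11.9% and 11.8% of all segments. No member was apart in spleen, muscle or blood, beside 6.94%, 1.96% and 3.58% of all segments. Under TMM the leading tissue was liver for 11 members, ovary for 4, muscle for 4, brain for 2, blood for 2 and spleen for 0 of the 23 that reached 1 in scaled units, where 13.5%, 16.5%, 16.1%, 19.7%, 22.4% and 11.8% of 14355 segments had their highest level. Under that scaling liver held 11 members apart, ovary 3, brain 2, muscle 2, blood 2 and spleen 0, where 6.55%, 6.39%, 10.1%, 6.65%, 11.3% and 3.93% of these segments were apart. The members gained were FADS1, FADS2 and HACD3 in liver, ACACB and HACD1 in muscle, and FADS1-like and HACD4 in blood, and those lost were OLAH in ovary and FADS6 and both ELOVL4-like segments in brain. All 8 liver-led members, which are FASN, both ACLY segments, ACACA, SCD, ELOVL5, ELOVL6 and HACD2, were apart and stayed led by liver under every scaling tried. In CPM the next tissue for each was brain, ovary or spleen. TMM, and totals without the 50 most abundant segments, raised liver against all of these. Totals without mitochondrial-genome segments shifted liver by a log2 of 0.18, brain by 0.19, spleen by 0.09 and ovary by 0.03. These scalings could therefore hardly have removed a lead over those tissues.

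**Figure D1:**
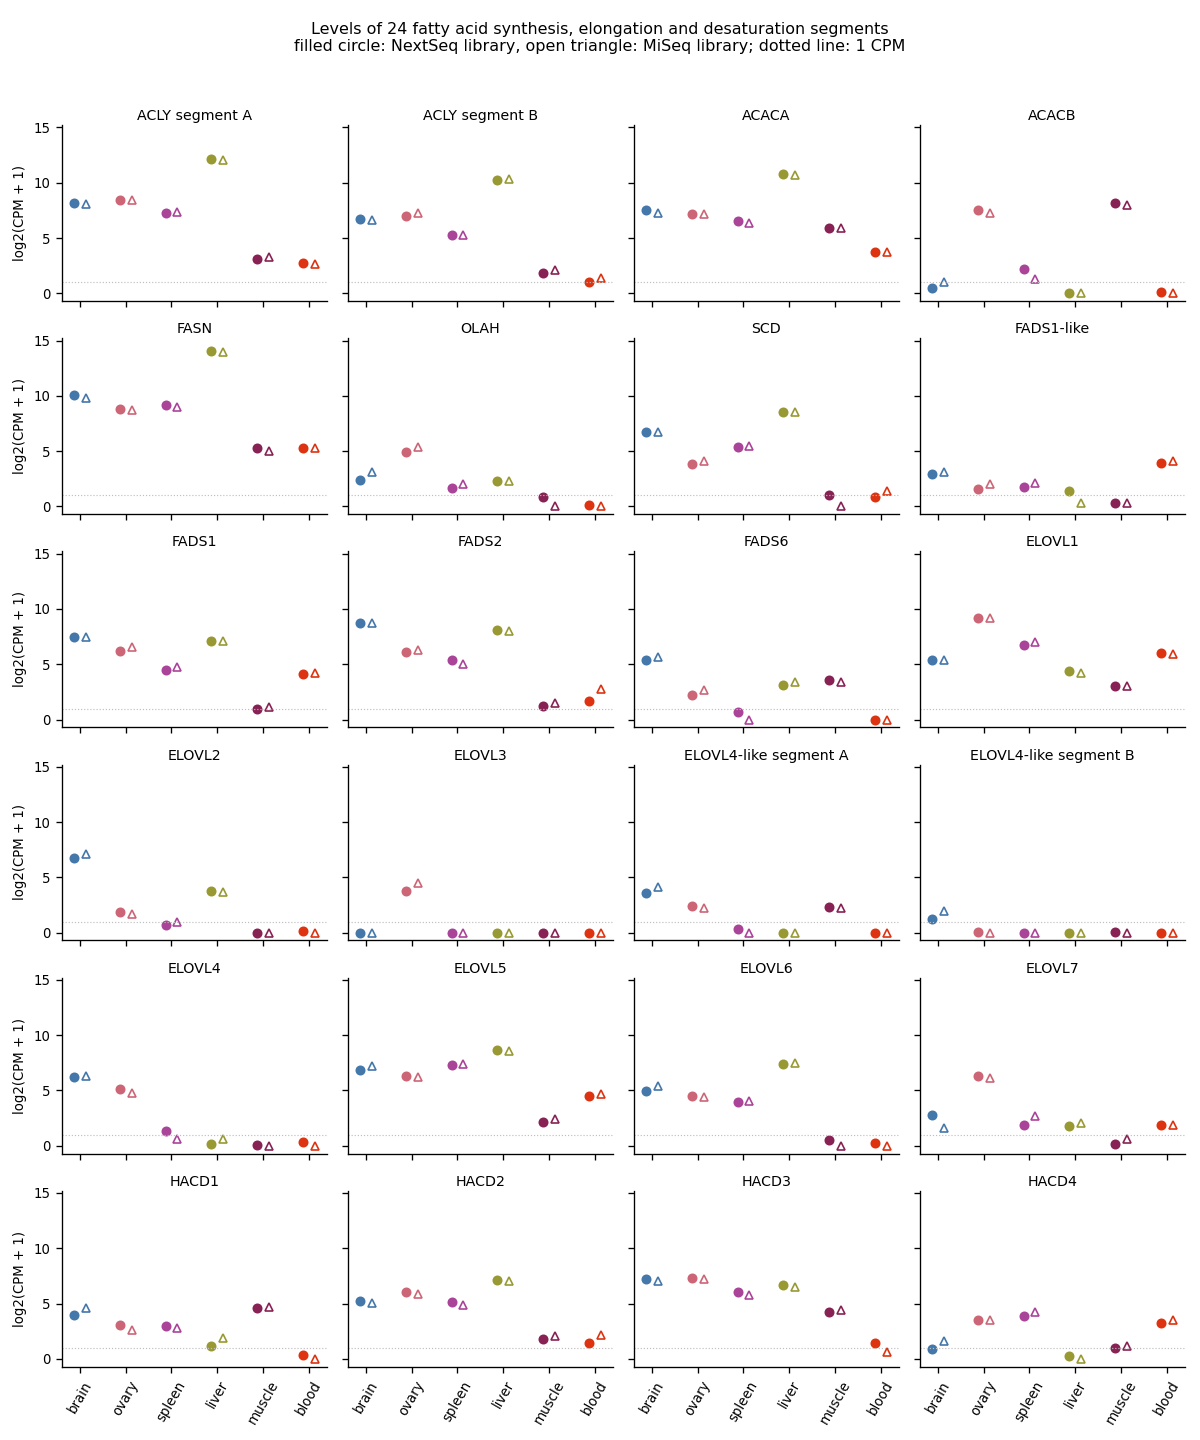
Level of each of the 24 members as log2 of CPM plus 1 (vertical axis) in the 6 tissues (horizontal axis), with NextSeq libraries as filled circles and MiSeq libraries as open triangles. FASN stands highest in liver at 17484.5 CPM of summed counts, and ELOVL3 lies at 0 everywhere but in ovary.

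Supply of acetyl-CoA and malonyl-CoA was led by liver except for 1 of the 2 carboxylases. ACLY segment A measured 4424 and 4381 CPM in liver, 347 and 338 in ovary, 290.5 and 263 in brain, 149 and 162 in spleen, 7.84 and 8.73 in muscle, and 5.85 and 5.27 in blood. The pairs of libraries did not overlap between tissues, and liver was 12.7-fold above ovary with 1 CPM added. Segment B followed the same order, from 1240.3 and 1306 CPM in liver to 1.08 and 1.67 in blood, with liver 9.46-fold above ovary. Segment A held 78.0% of the counts of both segments in liver and 72.7% to 83.9% in the other tissues, so the pair kept a similar ratio throughout. Reads shared by the segments could have been split between them, since both match the same protein.

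ACACA, the cytosolic carboxylase that feeds synthesis, measured 1828 and 1653 CPM in liver. It reached 179.7 and 153 CPM in brain, 148 and 141 in ovary, 90.0 and 79.6 in spleen, 60.1 and 60.9 in muscle, and 12.1 and 12.5 in blood. Liver was 10.2-fold above brain, and all 6 tissues were separated by their library values.

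ACACB, the carboxylase of the outer mitochondrial membrane whose malonyl-CoA is known to restrain fatty acid entry into mitochondria, was led by muscle. It measured 293 and 258 CPM in muscle and 180.4 and 151 in ovary. Spleen had 3.65 and 1.48 CPM, brain 0.402 and 0.989, and blood 2 counts in all. Liver had 0 counts of 35367734.0, which allows up to 0.0848 CPM (3 counts, counting error only), so muscle was at least 3430-fold and ovary at least 2109-fold higher than liver. Muscle exceeded ovary by 1.62-fold with 1 CPM added and by 10.1-fold under TMM.

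Adipocyte markers (ADIPOQ, PLIN1, CIDEC, FABP4 and LPL) also had their highest sums in these tissues. All 5 reached 1 CPM in ovary, and all but CIDEC (0.245 CPM) did so in muscle. The sums were 183 CPM in ovary and 107 in muscle against 1.14 to 32.1 elsewhere. FABP4 made up 143 and 71.8 CPM of those sums. ADIPOQ and CIDEC were highest in liver at 12.2 and 8.96 CPM, and PLIN1 in muscle at 2.94. LPL had 25.1 CPM in ovary, 24.5 in brain and 22.3 in muscle. The part of adipocytes in the ACACB levels was not tested.

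Within a library, the ratio of ACACA to ACACB does not depend on how tissues are scaled, apart from the 1 CPM added to each. On the log2 scale it was 10.83 in liver, 6.97 in brain, 4.32 in spleen, 3.63 in blood, −0.28 in ovary and −2.26 in muscle. Both platforms placed liver highest and muscle lowest, with 10.84 and 10.69 in liver and −2.26 and −2.06 in muscle. The 13.1 log2 units between them were the widest spread of the 8 enzyme pairs compared, and since ACACB was at 0 in liver that spread depends on the added CPM.

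FASN took 1.75% of all counts in liver. Its level was 17568 and 15918 CPM in liver, 1054 and 889.6 in brain, 569 and 515 in spleen, and 438 and 412 in ovary. Muscle had 37.7 and 32.2 CPM and blood 38.9 and 37.7. Liver was 16.7-fold above brain, the next tissue, and FASN was present in all 6 tissues with no overlap between neighbours, although blood and muscle nearly met. In spleen FASN stood at 3.24% of its liver level, beside the 1.13% median of the liver markers there, and the part of liver RNA in the spleen value was not tested.

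OLAH is a thioesterase that releases medium-chain fatty acids from FASN in mammalian mammary gland. It was led by ovary at 30.3 and 41.6 CPM, followed by brain at 4.18 and 7.91, liver at 3.86 and 3.93, and spleen at 2.26 and 2.97. Muscle had 34.5 counts in all and blood 3. Ovary was 5.94-fold above brain with 1 CPM added, and under TMM it was 1.86-fold above the next tissue.

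**Figure D2:**
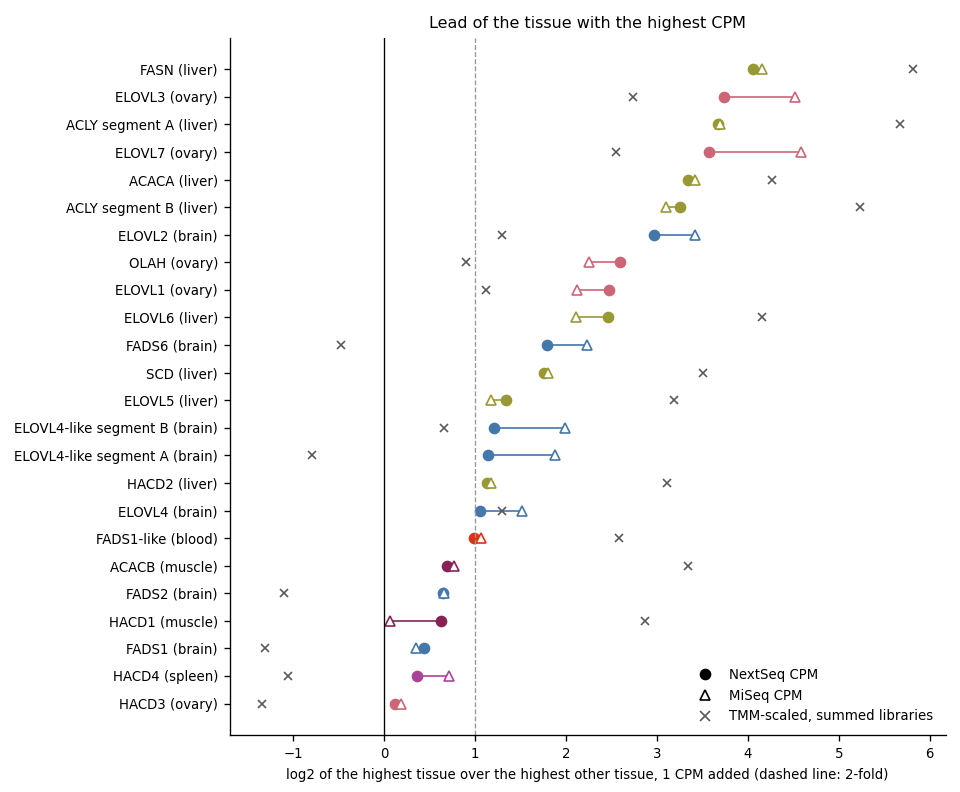
Lead of the highest tissue over the highest other tissue for each member (horizontal axis, log2 with 1 CPM added; the dashed line marks 2-fold), coloured by and labelled with the highest tissue, for NextSeq (filled circles), MiSeq (open triangles) and TMM-scaled summed counts (crosses). FASN leads by a log2 of 4.06 in the summed counts and by 4.06 and 4.16 on NextSeq and MiSeq, ELOVL3 by 3.74 and 4.52 on the same platforms, and 6 crosses lie left of 0, those of FADS1, FADS2, FADS6, ELOVL4-like segment A, HACD3 and HACD4.

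Of the 5 desaturases, brain led for FADS1, FADS2 and FADS6, liver for SCD and blood for FADS1-like. SCD, which places the first double bond in saturated chains, measured 365 and 379.9 CPM in liver, 107 and 108 in brain, 39.4 and 42.0 in spleen, and 13.2 and 16.0 in ovary. In muscle it had 1.12 and 0 CPM and in blood 0.765 and 1.67, and these last tissues overlapped. Liver was 3.40-fold above brain. Spleen held SCD at 10.8% of the liver level, beside the 1.13% median of the liver markers there. The part of liver RNA in this spleen value was not tested.

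FADS2, the desaturase that starts the conversion of dietary essential fatty acids to long polyunsaturated ones, was highest in brain at 433 and 411 CPM. Liver followed at 276 and 261 CPM, then ovary at 69.5 and 76.2 and spleen at 39.5 and 32.1. Blood had 2.29 and 5.83 CPM and muscle 1.35 and 1.75. Brain led liver by 1.57-fold in CPM, but under TMM liver led brain by 2.15-fold, so the order of this pair depends on the scaling.

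FADS1, which acts later on the same route, had 180.4 and 177 CPM in brain, 133 and 139 in liver, 72.8 and 92.5 in ovary, 21.2 and 26.7 in spleen, 16.3 and 17.5 in blood, and 0.895 and 1.25 in muscle. Brain led liver by 1.35-fold in CPM, whereas liver led by 2.49-fold under TMM and by 1.13-fold once the 50 most abundant segments of each tissue were left out. FADS1 and FADS2 shared the order of all 6 tissues, but their balance differed in blood, where the log2 ratio of FADS1 to FADS2 was 2.39 and 1.44 in the libraries against −1.26 and −1.22 in brain.

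Beside FADS1, a segment named FADS1-like was the single member led by blood. It measured 14.0 and 16.7 CPM in blood and 6.59 and 7.42 in brain, followed by 2.49 and 3.46 in spleen, 1.97 and 2.97 in ovary, 1.62 and 0.281 in liver and 0.208 and 0.249 in muscle. The lead over brain was 1.98-fold on NextSeq and 2.10-fold on MiSeq, which fell short of the 2-fold rule on the first. Of the counts of both names together, FADS1-like took 46.3% and 48.8% in the blood libraries, 10.6% of the summed counts in spleen and 1.15% in liver. Reads that match both segments could have been divided between them.

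FADS6, a family member of little-known substrate, had 40.5 and 49.5 CPM in brain and 10.9 and 9.73 in muscle. Lower levels were found in liver (7.55 and 9.27), ovary (3.72 and 5.20) and spleen (0.581 and 0), and blood had 0 counts, which allows up to 0.0941 CPM. Brain was 3.53-fold above muscle with 1 CPM added, but under TMM muscle led brain by 1.39-fold. FADS6 made up 75.4% of the desaturase counts in muscle.

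The balance between desaturases can be read within a library. The log2 ratio of FADS2 to SCD was 2.01 in brain and 2.30 in ovary, against −0.41 in liver and −0.02 in spleen. The pairs of libraries for brain (2.01 and 1.92) and ovary (2.31 and 2.18) lay above those of liver (−0.40 and −0.54). The ratio of SCD to FASN was lowest in liver at −5.58 and highest in brain at −3.28. Without the added CPM, liver exceeded brain 16.7-fold for FASN and 3.42-fold for SCD. Over blood, where SCD had 26 counts, these plain ratios were 450-fold and 449-fold.

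The 9 elongase segments divided among brain, which led 4, ovary, which led 3, and liver, which led 2. ELOVL6, which extends palmitate and other products of FASN, measured 166 and 181 CPM in liver. It had 29.3 and 41.04 CPM in brain, 20.97 and 19.7 in ovary, 14.6 and 15.8 in spleen, 0.417 and 0 in muscle, and 0.199 and 0 in blood. Liver was 5.43-fold above brain, and the muscle and blood values overlapped. ELOVL5, an elongase of polyunsaturated chains, was led by liver as well, at 396 and 378 CPM against 156 and 167 in spleen, 114 and 147 in brain, 79.3 and 75.1 in ovary, 21.6 and 24.7 in blood and 3.35 and 4.24 in muscle. Its lead over spleen was 2.51-fold.

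ELOVL2, which extends longer polyunsaturated chains and is needed for docosahexaenoic acid, was highest in brain. It measured 105 and 136 CPM there and 12.6 and 11.8 in liver, then 2.60 and 2.23 in ovary and 0.614 and 0.988 in spleen. Muscle had 0 counts at the greatest depth of all tissues, so brain was at least 1527-fold higher than muscle, and blood had 2.5 counts. The lead over liver was 7.96-fold with 1 CPM added and 2.45-fold under TMM. The log2 ratio of ELOVL5 to ELOVL2 was near 0 in brain (0.11 and 0.12) and 6.59 in spleen, 4.86 in liver, 4.49 in ovary, 4.40 in blood and 2.13 in muscle. ELOVL2 was under 1 CPM in spleen, blood and muscle, so the ratios there are lowered by the added CPM. The order of these tissues therefore cannot be read from them.

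ELOVL4, known for the very long chains of retina, skin and brain, measured 71.5 and 78.1 CPM in brain and 33.9 and 26.8 in ovary. Spleen had 1.45 and 0.494 CPM, and liver, muscle and blood had 4.5, 2 and 8 counts in all. Brain was 2.11-fold above ovary in CPM and 2.45-fold under TMM. ELOVL4-like segment A had 10.9 and 16.3 CPM in brain, 4.41 and 3.72 in ovary and 3.95 and 3.74 in muscle, with ovary and muscle overlapping, and no counts in liver or blood. Under TMM muscle led brain by 1.74-fold for this segment. Segment B reached 1.42 and 2.97 CPM in brain, from 29.5 counts, and had at most 2 counts in any other tissue.

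Ovary led for the elongases of saturated and monounsaturated chains other than ELOVL6. ELOVL1 measured 578 and 568 CPM in ovary, 103 and 130.0 in spleen, 63.8 and 59.9 in blood, 40.3 and 40.5 in brain, 20.6 and 18.0 in liver, and 7.18 and 6.98 in muscle, with no overlap. Ovary was 5.47-fold above spleen in CPM and 2.18-fold above the next tissue under TMM. In blood ELOVL1 gave 32.97% of the counts of all 24 members.

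ELOVL7 had 79.2 and 70.2 CPM in ovary and 5.76 and 1.98 in brain, and its levels in brain, spleen, blood and liver overlapped between neighbours. Its lead was 12.1-fold with 1 CPM added and 5.88-fold under TMM. ELOVL3, known in mice from skin and brown fat, was found at 12.4 and 21.9 CPM in ovary from 336.5 counts. No counts were seen in the other 5 tissues, so ovary was at least 70.6-fold above spleen, where the depth allowed the highest undetected level, 0.182 CPM.

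The ratios within libraries set these elongases apart from each other. For ELOVL6 over ELOVL1 the log2 ratio was 2.97 in liver, −0.42 in brain, −4.72 in ovary and −5.76 in blood. For ELOVL4 over ELOVL1 it was 0.82 in brain and between −2.96 and −5.69 in the other 5 tissues. In both cases the libraries of the highest tissue lay above all others, at 2.95 and 3.26 for liver and 0.81 and 0.93 for brain. ELOVL6 in muscle and blood, and ELOVL4 in liver, muscle and blood, were under 1 CPM. Their ratios to ELOVL1 are therefore raised by the added CPM, and the order of those tissues cannot be read from them.

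**Figure D3:**
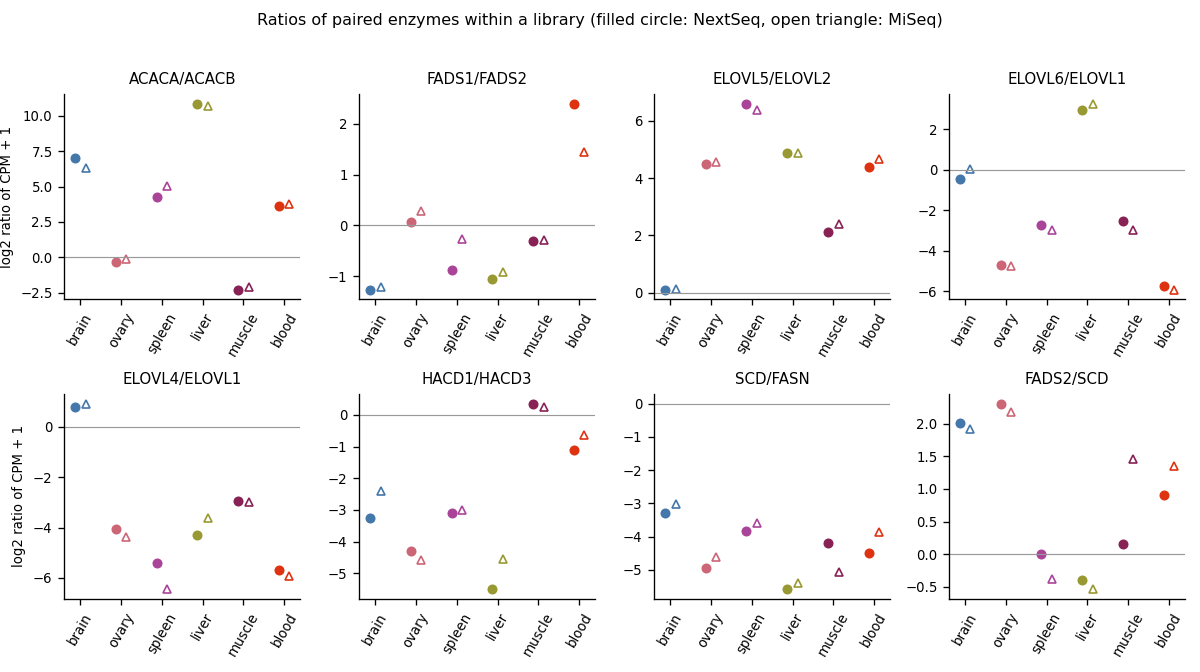
Log2 ratio of the CPM of 8 enzyme pairs, with 1 CPM added to each (vertical axis, a separate scale per panel), in the 6 tissues for NextSeq (filled circles) and MiSeq (open triangles). ACACA over ACACB runs from 10.83 in liver to −2.26 in muscle, and ELOVL5 over ELOVL2 is lowest in brain at 0.11.

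Dehydratases, which carry out the third reaction of each elongation cycle, were led by 4 different tissues. HACD3 measured 159 and 148 CPM in ovary and 146 and 129.6 in brain, followed by 101 and 87.9 in liver, 65.8 and 54.9 in spleen, 17.7 and 20.7 in muscle and 1.76 and 0.555 in blood. Ovary led brain by 1.09-fold in CPM, brain led by 1.02-fold without the mitochondrial genome and liver led ovary by 2.53-fold under TMM. HACD2 had 141 and 131 CPM in liver, 63.8 and 57.6 in ovary, 37.6 and 32.6 in brain, 34.2 and 28.2 in spleen, 2.38 and 3.24 in muscle and 1.70 and 3.61 in blood. Liver was 2.19-fold above ovary, and brain overlapped spleen.

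HACD1, a dehydratase known for its role in muscle of mice and dogs, measured 23.0 and 24.9 CPM in muscle and 14.5 and 23.7 in brain. The ranges overlapped, and the lead of muscle was 1.54-fold on NextSeq and 1.05-fold on MiSeq. Ovary had 7.14 and 5.20 CPM, spleen 6.75 and 5.93, liver 1.25 and 2.81, and blood 0.266 and 0. Under TMM muscle led by 7.33-fold. The log2 ratio of HACD1 to HACD3 was 0.36 and 0.26 in muscle and at most −0.64 in every library of the other tissues.

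HACD4 was the single member led by spleen, at 14.1 and 18.3 CPM against 10.7 and 10.8 in ovary and 8.41 and 10.5 in blood. Muscle, brain and liver had summed levels of 1.005, 0.940 and 0.184 CPM. Spleen led ovary by 1.31-fold in CPM, but blood led spleen by 2.08-fold under TMM.

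Summed over a step, the tissues separated most at the synthase, and next at the supply of acetyl-CoA and malonyl-CoA. The 4 supply segments summed to 7484 CPM in liver, 804 in ovary, 574 in brain, 361 in muscle, 281 in spleen and 19.1 in blood. FASN and OLAH summed to 17488 CPM in liver, 1049.8 in brain and 38.2 in muscle, and FASN gave 93.4% of the sum in ovary and a larger share elsewhere. The 5 desaturases summed to 784 CPM in liver and 767 in brain, with 783.9 and 789 against 768 and 753 CPM in the paired libraries, but liver led by a log2 of 1.79 under TMM and of 0.64 without the 50 most abundant segments. The 9 elongases were highest in ovary (809 CPM, 71.3% of it ELOVL1), then liver (597) and brain (383), although liver exceeded ovary under TMM and without the 50 most abundant segments. The 4 dehydratases reached 242 CPM in liver and 239 in ovary, whose libraries overlapped, and liver led by a log2 of 1.80 under TMM.

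All 24 members together gave 26596 CPM in liver, or 2.66% of its counts. They gave 2971 CPM in brain, 2482 in ovary, 1353 in spleen, 474 in muscle and 193 in blood. FASN supplied 65.7% of the liver sum and ACACB 61.4% of the muscle sum. Without FASN the liver sum was 9111 CPM, against 2046 in ovary and 1926 in brain.

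**Figure D4:**
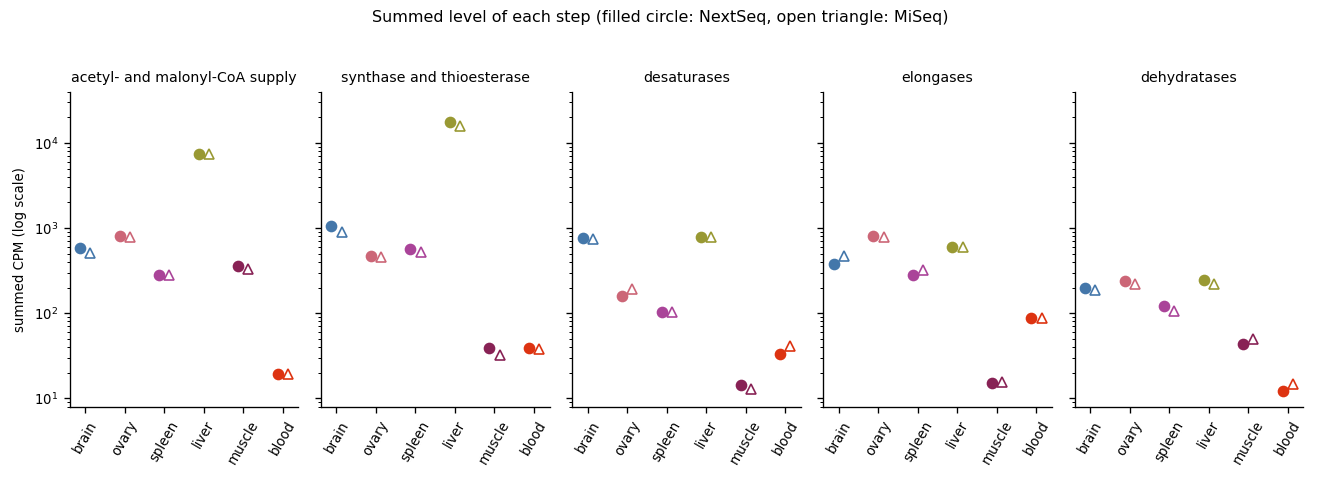
Summed CPM of the members of each of the 5 steps (vertical axis, log scale) in the 6 tissues for NextSeq (filled circles) and MiSeq (open triangles). Liver stands above the other tissues at supply (7484 CPM) and at the synthase (17488 CPM), and in CPM close to brain for desaturases and to ovary for dehydratases, where under TMM it led by a log2 of 1.79 and 1.80.

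Presence at 1 CPM or more was counted as well. Ovary held 23 of the 24 members, brain 21, spleen 19, liver 18, muscle 15 and blood 13. Among all 14908 segments the shares were 88.3%, 87.7%, 83.4%, 66.7%, 61.2% and 57.7% in the same order, and 23 of 24 in ovary and 21 of 24 in brain come to 95.8% and 87.5%. Of the 24 members, 9 (37.5%) reached 1 CPM in every tissue, beside 47.6% of the 14561 segments that reached it in any tissue. Present in all were both ACLY segments, ACACA, FASN, FADS2, ELOVL1, ELOVL5, HACD2 and HACD3, and 2 members were present in a single tissue, ELOVL3 in ovary and ELOVL4-like segment B in brain.

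The index of tissue specificity (τ) is 0 for even levels and rises toward 1 as a gene nears a single tissue, which the floor of 2 CPM keeps it from reaching. It had a median of 0.549 over the members and 0.461 over all segments with at least 1 CPM. ELOVL2 was highest at 0.762, followed by ELOVL7 at 0.753 and ELOVL3 at 0.729, and HACD3 was lowest at 0.315 apart from ELOVL4-like segment B, which has a τ of 0 because its level stayed under that floor. FASN had a τ of 0.454 in spite of its liver level, since it was well above the floor in every tissue. No member passed 0.8, a mark that 5.40% of all segments passed. With a floor of 1 CPM, ELOVL3 and ELOVL4-like segment B had a τ of 1, ELOVL2 of 0.851 and ELOVL4 of 0.820, so 4 of 24 members (16.7%) passed 0.8, beside 26.7% of all segments.

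Genes that supply or steer the pathway were taken as a further list of 38, of which 33 had a matching segment. Where several segments matched a gene of this list, the beta-oxidation list or the markers, only that with the most counts was used. PPARA and ACADM, for example, matched 2 segments each. Liver led for 12 of the 33, ovary for 13, brain for 4, spleen for 3, muscle for 1 and blood for 0. Liver's share was 36.4% and ovary's 39.4%, beside 6.23% and 32.1% of all segments, and brain's 12.1% and spleen's 9.09% stood beside 24.9% and 23.7%. Under TMM liver led for 14 and ovary for 2, where 13.5% and 16.5% of all segments had their highest level in these tissues. In CPM 9 genes were apart in liver, beside 3.56% of all segments. These were the citrate carrier SLC25A1 (196 CPM in liver, 54.7 in ovary), the NADPH-making enzymes ME1 (1414 and 304) and IDH1 (1037 and 102 in the same tissues), the acetate-activating ACSS2, the acyl-CoA synthetases ACSL5 and ACSBG2, the elongation reductase TECR, the sterol sensor partner INSIG1 and the nuclear receptor PPARA, whose lead over muscle of 2.38-fold came to 1.56-fold under TMM. ACSL5 had the widest lead of the list, with 3563 CPM in liver and 48.7 in spleen, which is 71.7-fold with 1 CPM added. Ovary followed at 7.52 CPM. In spleen the 5 liver markers stood at 0.794% to 1.46% of their liver level. The part of liver RNA in the spleen value of ACSL5 was not tested. TECR was at a low level throughout, with 3.03 CPM in liver.

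Not all NADPH sources followed liver. PGD, an enzyme of the pentose phosphate route, had 239 CPM in ovary and 207 in spleen, a lead of 1.16-fold, with 34.0 in liver. HSD17B12, the ketoreductase of elongation, was apart in ovary at 335 CPM against 153 in liver, although under TMM liver led ovary by 1.83-fold. The neuronal and glial acyl-CoA synthetases ACSL6 and ACSBG1 were apart in brain at 415 and 238 CPM, and the oxysterol receptor NR1H3 was apart in spleen at 237 CPM, 3.96-fold above ovary, although under TMM spleen was 1.79-fold above liver and not apart. SREBF1, SCAP, MLXIPL, THRSP and MID1IP1 were not analysed here.

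The opposed pathway, beta-oxidation, was taken as a list of 23 with 21 matched. Muscle led for 14 of them and liver for 6, beside 4.11% and 6.23% of all segments. Of the muscle-led genes CPT1B, ACAA2 and ECI1 were apart in CPM, beside 1.96% of all segments, and 11 of the 14 were apart under TMM, beside 6.65%. HADHA had 1357 CPM in muscle and 720 in liver, a lead that came to 2.95-fold under TMM. ACADM had 1541 and 1335 CPM in the same tissues, and its lead was 1.81-fold under TMM. The peroxisomal enzymes EHHADH, ACAA1 and HSD17B4 were apart in liver. CPT1A, the entry step of mitochondrial oxidation, was led by ovary at 239 CPM, with 148 in liver and 8.47 in muscle, and under TMM liver led ovary by 2.48-fold.

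**Figure D5:**
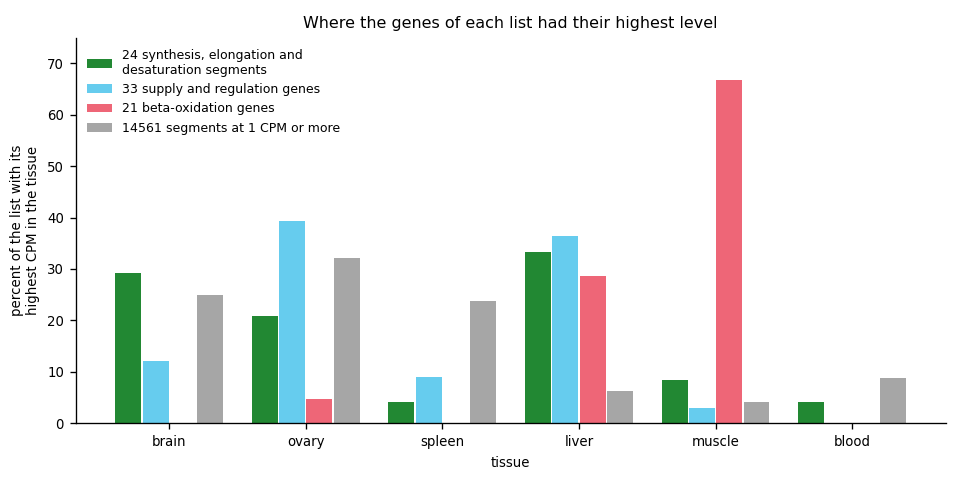
Percent of each list whose highest CPM was in a given tissue (bars from 0), for the 24 members, the 33 supply and regulation genes, the 21 beta-oxidation genes and all 14561 segments at 1 CPM or more. Of the oxidation list 66.7% was led by muscle, and 33.3% of the members and 36.4% of the supply list were led by liver.

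The segments whose pattern was most like FASN were found by Pearson's r of log2 of CPM plus 1 over the 12 libraries, among 12384 others with at least 10 CPM in a tissue. The 12 points are 6 pools measured in pairs, and the values are a description. In order they were probable imidazolonepropionase (0.994), Golgi reassembly-stacking protein 1 (0.991), solute carrier organic anion transporter family member 1C1 (0.989), alanine aminotransferase 2 (0.989) and pterin-4-alpha-carbinolamine dehydratase (0.988). Of the members, ACLY segment A was 16th (0.977), ELOVL6 20th (0.976) and SCD 39th (0.965), and ACACB had a negative value (−0.44). For SCD the nearest were serotransferrin (0.981), 25-hydroxycholesterol 7-alpha-hydroxylase (0.979), choline dehydrogenase (0.969), 60 kDa lysophospholipase (0.969) and ELOVL6 (0.968).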

How the data were processed

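The authors trimmed reads with Trimmomatic 0.36 and, per their methods, aligned these by bwa mem to the coding portions of an assembly they had built, while their processing notes also list STAR 2.5.2a. The program that counted reads is not given in the sources used here. The deposited table holds 14908 segments with a protein name and 12 columns of expected counts, in steps of 0.5 and not normalized. In part of the deposited columns these counts hold commas between digit groups, which were removed.

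For each tissue, the NextSeq and MiSeq counts were added up and expressed as CPM of their joint total. Exact Poisson limits at 95% were computed for each level and cover counting error only. Apart from these, a count of 0 was given a limit of 3 counts, which is lower than its upper Poisson limit. For ACACB in liver the 2 limits were 0.0848 and 0.104 CPM. Each fold of a leading tissue has 1 CPM added unless stated otherwise. Folds given as at least a value are plain ratios of CPM to the limit of 3 counts. They would be smaller with the upper Poisson limit. τ was computed on natural logs with levels under 2 CPM set to 2. As each tissue is 1 pool, no test was run. Members and lists were chosen with earlier results of these data known. Of the members, all were named, and of the other lists those apart or led by an unusual tissue were named. The values of 2 list genes are not reported here, although the counts over their lists include them. The procedure was run on simulated counts in which all tissues shared the same mean levels, except for a set of genes raised in a tissue. These counts lacked the differences in composition between the tissues, so the choice of scaling was not tested by them. As alternatives, values were recomputed from a single platform, from the mean CPM, with TMM factors from edgeR 4.0.16 (R 4.3.3), with totals lacking the 50 most abundant or the 19 mitochondrial-genome segments, with same-named segments summed, and with other pseudocounts, folds, filters and floors. Python 3.11.15 was used with scipy 1.17.1, numpy 2.4.6, pandas 2.3.3 and, for plots, matplotlib 3.10.9.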

Additional observations from a re-analysis of the deposited data

How the results depend on the processing

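Single platforms and the mean of both named the leading tissue of every member as the summed counts did. Scaling changed more. Under TMM the members led by each tissue were 2 in brain, 0 in spleen, 4 in muscle and 2 in blood, beside 19.7%, 11.8%, 16.1% and 22.4% of all segments, 2 were apart in brain, and the supply list had 2 genes led by ovary. The 6 members with another leading tissue had log2 leads of −0.47 (FADS6), −0.80 (ELOVL4-like segment A), −1.32 (FADS1), −1.10 (FADS2), −1.34 (HACD3) and −1.06 (HACD4). The log2 leads of the steps became 3.72 for supply, 5.81 for the synthase, 1.79 for desaturases, −1.57 for elongases, where liver passed ovary, and 1.80 for dehydratases. Without the 50 most abundant segments these leads were 3.48, 4.66, 0.64, −0.29 and 0.75. Spleen then led 0 members and blood 2, beside 19.4% and 15.7% of all segments. In brain 3 members were apart, in muscle 2 and in blood 1, beside 11.5%, 4.71% and 6.69%. Ovary led 7 supply genes, beside 24.2%. Segments of the mitochondrial genome took 59.3% of muscle counts, against 0.656% to 12.1% in the other tissues. Without them 3 members were apart in brain and 2 in muscle, beside 12.4% and 4.01% of all segments. The 2 in muscle were ACACB, with a lead of 3.91-fold, and HACD1, with 3.19-fold. Ovary led 8 supply genes, beside 28.0%. The log2 leads of the steps were then 3.26 for supply, 0.28 for elongases and 0.17 for dehydratases. These scalings change no count within a tissue.

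Across platforms taken singly, the log2 leads ranged from 3.22 to 3.23 for supply, 4.05 to 4.15 for the synthase, 0.030 to 0.067 for desaturases, 0.41 to 0.44 for elongases and 0.0046 to 0.017 for dehydratases, and the median τ from 0.549 to 0.554. The difference of a log2 ratio between the tissues highest and lowest in the summed counts ranged from 12.76 to 13.10 for ACACA/ACACB, 2.65 to 3.65 for FADS1/FADS2, 6.29 to 6.50 for ELOVL5/ELOVL2, 8.71 to 9.19 for ELOVL6/ELOVL1, 6.49 to 6.86 for ELOVL4/ELOVL1, 4.80 to 5.86 for HACD1/HACD3, 2.29 to 2.36 for SCD/FASN and 2.71 to 2.73 for FADS2/SCD. Through the added CPM, TMM gave 13.92 for ACACA/ACACB, 5.77 for ELOVL5/ELOVL2, 9.44 for ELOVL6/ELOVL1, 7.13 for ELOVL4/ELOVL1 and 2.61 for FADS2/SCD, and leaving out the 50 segments gave 14.02, 6.66, 9.68, 7.37 and 2.72.

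The median τ was 0.585 under TMM, 0.527 without the 50 segments, 0.544 with same-named segments summed and 0.635 with a floor of 1 CPM. At 4-fold, 10 members were apart, 5 of them in liver and 1 in brain. At 5 CPM, 8 members were present in muscle and 8 in blood. No share of all segments is given at 4-fold or at 5 CPM, so these counts have no background beside them. No paired analysis was possible because no result comes from a test. Depth limits the MiSeq values most, where 1 count is worth 0.499 to 0.989 CPM, and the levels of ELOVL4-like segment B.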
